A study of Caenorhabditis elegans with 2 samples.

Results

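The genes sls-2.1, sls-2.2 and sls-2.4 of Caenorhabditis elegans encode spliced leader RNAs of the SL2 family, and each had a region of NPAX-4 chromatin immunoprecipitation (ChIP) signal at it. They are 3 of 18 annotated sls-2 snRNA genes, among 46926 annotated genes in all. They were chosen from the authors' reproducible ("optimal") region list, by a summit within 500 bp of the gene, so their presence in that list, their signal and their rank are given as a description with no test. Applied to all 18 genes, the same distance held for 2 more. The summit at sls-2.2 was 428 bp from sls-2.3, and a summit 179 bp from sls-2.9 lay inside a tRNA gene.

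NPAX-4 is a paired-domain protein. The 2 samples were biological replicates of a single condition, replicates 1 and 2 in the labels. They were late embryos of hermaphrodite strain OP493, genotype unc-119(tm4063) III; wgIs493, collected 4 h after synchronisation by egg bleaching. The integrated transgene expresses NPAX-4 with a GFP-FLAG tag at its C terminus, and precipitation used an antibody against GFP. Both replicates came from this transgenic strain and from whole animals, so strong binding in few cells and weak binding in many cannot be told apart. The control library was not analysed here, and the depth is unknown because the files give regions and no read counts.

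Spliced leader RNAs donate their first bases to the 5′ ends of other messenger RNAs by trans-splicing. In C. elegans the SL2 leader is placed mainly on downstream genes of operons, whereas SL1 is placed on the first gene and on many single genes. SL RNA genes are short and intron-free, and RNA polymerase II transcribes them from a proximal sequence element before the start, as it does most spliceosomal snRNA genes.

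The transcripts are shown because the chosen genes share a leader. The first 22 bases are in capitals, 5′ to 3′ on the gene's strand, from the RefSeq WBcel235 genome (the assembly that ce11 names).
sls-2.1, transcript, chrII:5844865-5844974, plus strand: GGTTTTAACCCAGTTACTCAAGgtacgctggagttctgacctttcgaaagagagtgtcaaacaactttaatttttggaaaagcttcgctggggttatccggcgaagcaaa
sls-2.2, transcript, chrII:5543598-5543707, plus strand: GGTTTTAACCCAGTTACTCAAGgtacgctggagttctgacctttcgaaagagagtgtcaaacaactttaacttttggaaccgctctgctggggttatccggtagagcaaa
sls-2.3, transcript, chrII:5544164-5544273, minus strand: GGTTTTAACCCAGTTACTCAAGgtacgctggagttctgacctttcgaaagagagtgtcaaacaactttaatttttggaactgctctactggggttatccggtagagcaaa
sls-2.8, transcript, chrIII:12250465-12250575, plus strand: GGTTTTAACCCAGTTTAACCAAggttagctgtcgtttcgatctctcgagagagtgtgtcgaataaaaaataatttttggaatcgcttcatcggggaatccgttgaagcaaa
sls-2.13, transcript, chrIV:5063422-5063531, minus strand: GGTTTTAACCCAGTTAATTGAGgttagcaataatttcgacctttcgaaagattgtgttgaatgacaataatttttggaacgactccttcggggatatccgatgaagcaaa
sls-2.1, sls-2.2, sls-2.3 and sls-2.4 began with the same 22 bases, which are the SL2 leader itself, and these bases occurred at 4 places in the genome, both strands searched. The other 14 sls-2 genes began with other bases, in 10 further versions. The cut at 22 bases was the same for all genes, so in these 14 it may not fall where the leader ends. sls-2.8 and sls-2.13 stand for them above: sls-2.8 had weaker regions nearby, and sls-2.13 had no summit within 500 bp in any list. The 3 chosen genes thus had a single version of the first 22 bases, of 11 in the family. The gene that completes this version, sls-2.3, was 428 bp from the optimal summit at sls-2.2, and that region did not overlap sls-2.3. sls-2.9, which also has an optimal summit within 500 bp, inside the tRNA gene beside it, has other first bases. The 5 genes within that distance of an optimal summit thus did not all share a single version. The distance rule did not use the leader, but it does not by itself leave out sls-2.3 or sls-2.9. The leader was compared after the regions were known, so this is a description of these 18 genes.

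The likeness of sls-2.1 to sls-2.4 ran through the transcript and into the bases before it. Over 6 pairs among these genes, identity of the aligned transcripts ranged from 90.9% to 97.3%, with a median of 94.1%. Over 56 pairs of 1 of these genes with 1 of the other 14, it ranged from 71.3% to 81.1%, so those ranges did not overlap. The groups were formed by the first bases of the transcript, and those bases are part of the aligned transcripts. Part of this difference in the transcript was therefore fixed in advance. Over the 100 bp before the start, identity was 67.0% to 79.0% within sls-2.1 to sls-2.4 and 39.8% to 54.9% between them and the others. Over the 100 bp after the transcript, it was 50.9% to 58.3% within them and 44.2% to 56.4% between them and the others, and these ranges overlapped. Close copies were also found among the other genes, with transcript identity up to 99.1% and a highest identity of 96.0% before the start, and so are not particular to the genes with regions.

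**Figure D1:**
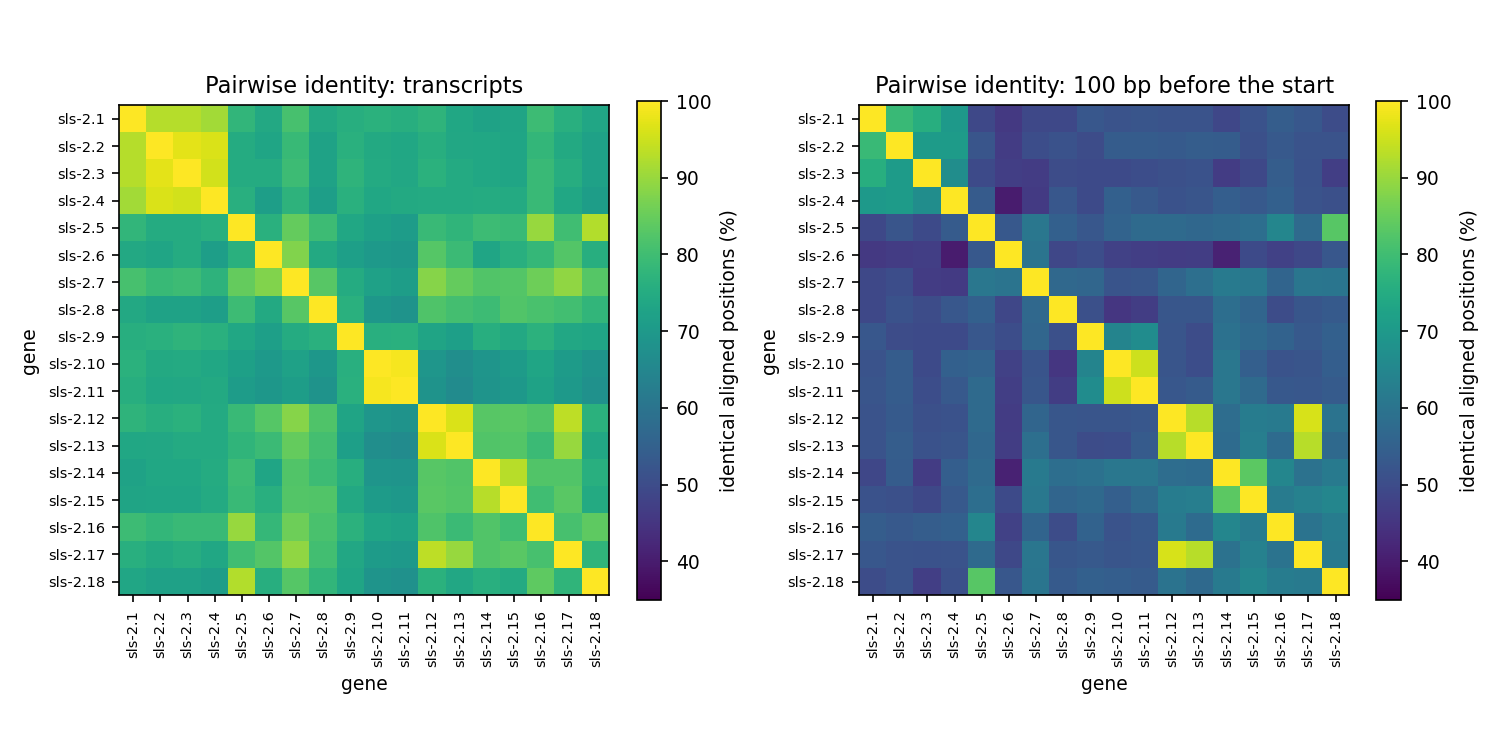
Pairwise identity of the 18 sls-2 genes over the transcript (left) and over the 100 bp before the start (right), as the percentage of aligned positions that are identical. sls-2.1 to sls-2.4, grouped by their shared first bases, form a block of 90.9% to 97.3% in the transcript and 67.0% to 79.0% before it.

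The bases before the start are shown because they held a stretch that no other gene had. The stretch of 15 bases is in capitals, again 5′ to 3′ on the gene's strand of the RefSeq WBcel235 genome, and sls-2.13, which lacks it, has no capitals.
sls-2.1, 70 bases before the start, chrII:5844795-5844864, plus strand: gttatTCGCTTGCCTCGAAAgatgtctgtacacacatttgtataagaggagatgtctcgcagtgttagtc
sls-2.2, 70 bases before the start, chrII:5543528-5543597, plus strand: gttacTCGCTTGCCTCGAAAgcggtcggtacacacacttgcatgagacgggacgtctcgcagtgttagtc
sls-2.3, 70 bases before the start, chrII:5544274-5544343, minus strand: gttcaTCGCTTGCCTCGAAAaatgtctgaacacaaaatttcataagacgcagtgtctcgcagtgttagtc
sls-2.13, 70 bases before the start, chrIV:5063532-5063601, minus strand: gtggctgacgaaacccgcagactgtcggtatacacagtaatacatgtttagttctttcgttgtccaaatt
The stretch TCGCTTGCCTCGAAA was the longest run common to the 100-bp windows before sls-2.1, sls-2.2 and sls-2.4. It lay at −65 to −51 in each of them and at the same place in sls-2.3, counting the first base of the transcript as 0. It occurred at 4 places in the genome, both strands searched, and all 4 were these. Of 46926 windows of 100 bp before an annotated gene, 4 held it (0.00852%). It was inside 3 of the 354 optimal regions, those at the 3 chosen genes, and in no other region of the joint list. The copy before sls-2.3 was thus in no region of either list. The stretch was found by comparing the chosen genes, whose optimal regions reach back over it. Its presence in those regions therefore followed from the choice of genes, and these counts are a description.

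Among words of 6 bases, 16 were common to the windows of the 3 chosen genes, and most lay in the stretch described above. GTACAC, which lay outside it, was at −43 in all 3 genes. On either strand it was also within 100 bp before sls-2.9, sls-2.10 and sls-2.11, and before 37 of 99 snRNA-class genes that are not spliced leader genes (37.4%), against 2.02% of all annotated genes. GTACAC overlaps TACACA, which was in 16.2% of those snRNA-class windows and in 4.40% of all. Of the 16 words GTACAC had the highest share in those windows, and it was absent within 100 bp before sls-2.3. Words of the stretch went both ways, such as CTCGAA (0% of those windows against 4.14% of all) and CCTCGA (5.05% against 1.43%). TCACGC, a short motif bound by paired-domain proteins, was absent on both strands from the 75 bp on each side of the summits at sls-2.1, sls-2.2 and sls-2.4. It was in 5.08% of the 354 optimal summit windows and in 2.94% of the 12100 other summit windows of the joint list. Letters absent from a window say nothing further about the factor.

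The optimal list held 354 regions on ce11. The relaxed lists from which it was derived, which also hold background regions, had 12454 regions for both replicates jointly, 19207 in replicate 1 and 18799 in replicate 2. Each region carries a signal from the authors' peak caller on an unstated scale, so signals and ranks are read only within a list. Optimal regions were those with a signal of 76.4 or more in the joint list, and the highest signal outside was also 76.4 when rounded.

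The strongest region of the family was at sls-2.4 (WBGene00004836), on chromosome I from 4172206 to 4172315 on the plus strand. Its signal was 164 in the joint list, 94.0 in replicate 1 and 68.7 in replicate 2. Its rank was 89 of 12454 in the joint list, 65 of 19207 in replicate 1 and 121 of 18799 in replicate 2. Thus in each replicate's own list it was among the strongest 1% of regions and had the highest signal of any sls-2 gene. The region ran from 4172059 to 4172508 in the optimal list and covered the whole gene.

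The region at sls-2.1 (WBGene00004833), on chromosome II from 5844865 to 5844974 on the plus strand, had a signal of 122 in the joint list. Its signal was 71.8 in replicate 1 (rank 117) and 54.9 in replicate 2 (rank 191). The region ran from 5844757 to 5845206 in the optimal list, where its rank was 159 of 354. Of the 3 genes it alone had a single region within 500 bp in every list.

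The region at sls-2.2 (WBGene00004834), on chromosome II from 5543598 to 5543707 on the plus strand, had a signal of 115 in the joint list. Its signal was 51.0 in replicate 1 (rank 243) and 63.6 in replicate 2 (rank 146). The region ran from 5543511 to 5543960 in the optimal list, where its rank was 176 of 354. The order of sls-2.1 and sls-2.2 was opposite in the replicates, with sls-2.1 higher in replicate 1 and sls-2.2 higher in replicate 2. sls-2.4 ranked above both in each replicate, though in replicate 2 its rank of 121 was near the 146 of sls-2.2. With 2 replicates the spread of signal cannot be measured, so these orders are a description. The median signal of the optimal list was 115, so all but sls-2.4 lay close to its middle.

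sls-2.9 (WBGene00004841), on chromosome I from 13297877 to 13297985 on the plus strand, was the remaining gene near an optimal region. That region had a signal of 99.7 in the joint list, 49.8 in replicate 1 (rank 250) and 46.4 in replicate 2 (rank 265), below each of the 3 chosen genes in both replicates. Its summit was 179 bp before the start of sls-2.9 and inside the tRNA gene M01E5.t1 and the overlapping noncoding gene M01E5.8. No tRNA gene lay within 2000 bp of sls-2.1, sls-2.2 or sls-2.4.

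**Figure D2:**
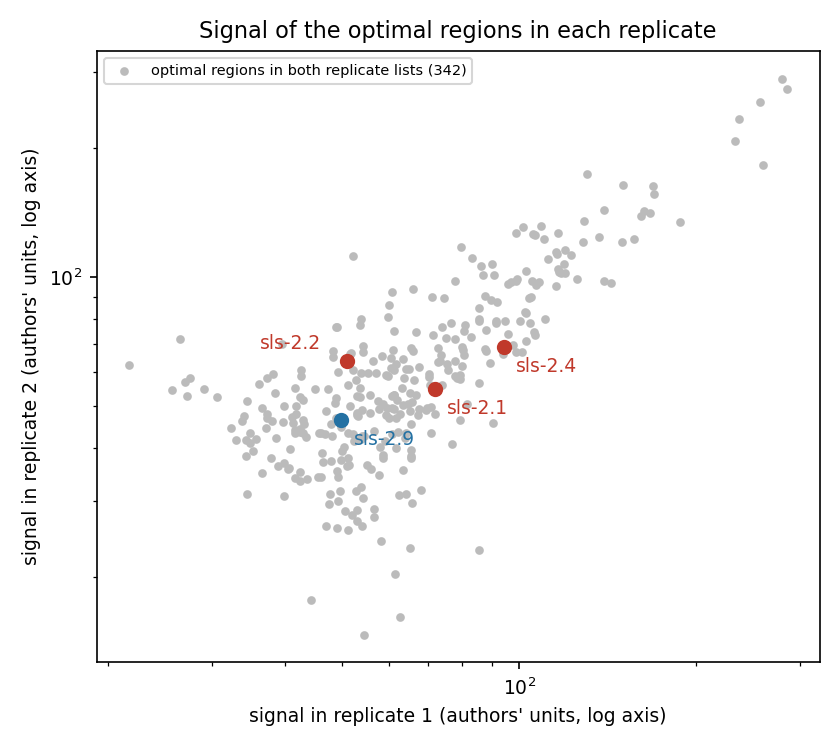
Signal of the 342 optimal regions that overlap a region in both replicate lists (grey points), in replicate 1 (x) and replicate 2 (y), both in the authors' units on log axes. The chosen genes are in red and sls-2.9 in blue, and sls-2.1 and sls-2.2 lie on opposite sides of each other on the 2 axes.

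For the family as a whole, 5 of 18 sls-2 genes (27.8%) were within 500 bp of an optimal summit, at 4 distinct regions. Over all annotated genes 781 of 46926 were (1.66%), which is a background and not a test, since the genes were chosen from this list. Among tRNA genes the share was 24.8%, among protein-coding genes 1.88%, and among the 99 other snRNA-class genes 3 had one (3.03%). In the joint list 8 of 18 sls-2 genes had a summit within 500 bp, against 22.7% of all annotated genes. In replicate 1 the count was 7 of 18, against 31.0%, and in replicate 2 it was 9 of 18, against 30.9%. As shares, the sls-2 genes were at 44.4% (joint), 38.9% (replicate 1) and 50% (replicate 2). In the same order, protein-coding genes were at 34.5%, 46.7% and 46.1%, and tRNA genes at 58.7%, 55.5% and 60.7%. The other snRNA-class genes were at 19.2%, 29.3% and 30.3%. The sls-2 share was thus below that of tRNA genes in each relaxed list and below that of protein-coding genes in replicate 1. The relaxed lists are long, so a region there sets a gene less apart.

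Of the genes with no optimal summit within 500 bp, 5 had a region in at least 1 relaxed list, and each such region ranked below the strongest region of each of the 3 chosen genes in the same list. At sls-2.8 the strongest region had a signal of 42.6 in replicate 1 (rank 333), with its summit 88 bp past the gene, and 21.1 in replicate 2 (rank 3992), with its summit 475 bp past it. In the joint list its signal was 44.7, with rank 1994, and it was not in the optimal list. sls-2.14 and sls-2.15 shared a joint region of signal 29.5 (rank 11306) and a replicate 2 region of signal 23.0 (rank 2677), and replicate 1 had none within 500 bp of either. sls-2.6 had a region in replicate 2 alone (rank 17101) and sls-2.18 in replicate 1 alone (rank 11424). The remaining 8 genes, sls-2.5, sls-2.7, sls-2.10 to sls-2.13, sls-2.16 and sls-2.17, had no summit within 500 bp in any of the 4 lists.

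The distance limit divided the genes without close cases on the outer side. Inside it, besides the chosen genes, were sls-2.9, at 179 bp, and sls-2.3, at 428 bp, of which sls-2.3 was the closer to the limit. The next nearest optimal summits were 2480 bp from sls-2.15 and 3078 bp from sls-2.14, and for each of the others it was at least 50856 bp away (sls-2.11).

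**Figure D3:**
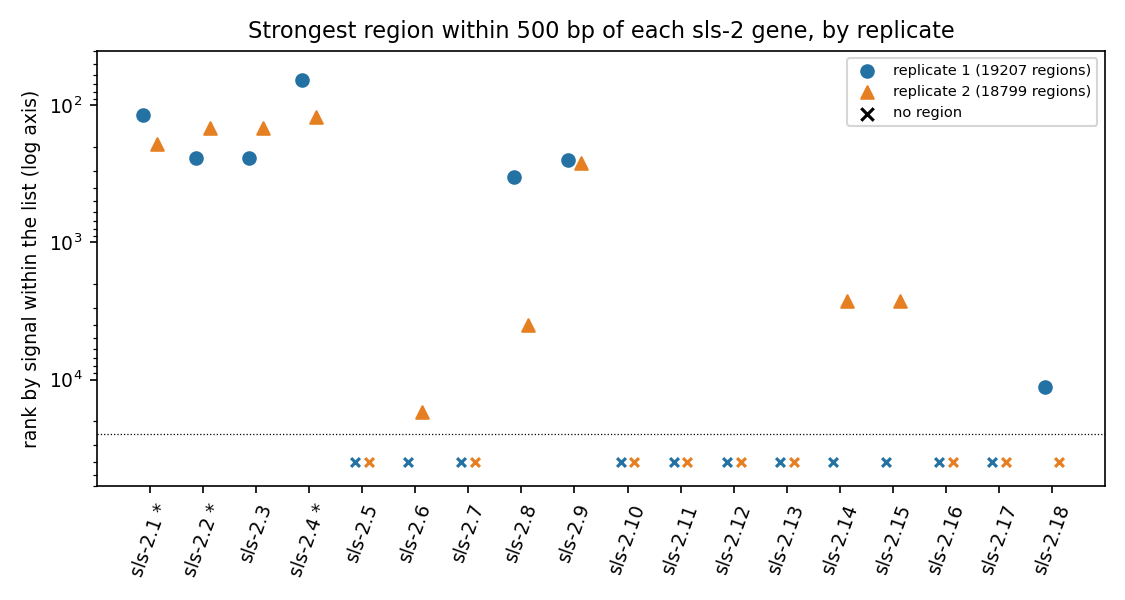
Rank by signal (log axis, strongest at the top) of the strongest region within 500 bp of each sls-2 gene, in replicate 1 (circles) and replicate 2 (triangles), with crosses below the dotted line where the list has no region. Asterisks mark the chosen genes, whose ranks run from 65 to 243, and sls-2.3 repeats the region of sls-2.2.

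The summits of the chosen genes lay at the end of the transcript rather than before its start. In the optimal list they were at +78 for sls-2.4, +117 for sls-2.1 and +138 for sls-2.2, each transcript being 110 bases long. In replicate 1 the summits were at +111, +117 and +138 in the same order of genes, and in replicate 2 they were at +117, +132 and +121. Every replicate summit thus lay 2 to 29 bp past the end of the transcript, and none lay at the stretch of shared bases before the start. The replicates differed by 6 bp at sls-2.4, 15 bp at sls-2.1 and 17 bp at sls-2.2. Over the 342 optimal regions with a region in both replicates, the median difference was 28 bp, with quartiles of 9 and 54.5 bp. Nearly all regions were 450 bp long with the summit at their centre (90.1% of the optimal list and over 99% of each relaxed list), so a summit stands for a broad interval that also covers the start of the gene.

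Weaker second regions lay on the downstream side. At sls-2.4 the joint list held a second summit at +285 (signal 62.9, rank 513) and replicate 2 one at +324 (signal 27.9, rank 1096). These summits at sls-2.4 lay inside the protein-coding gene R12E2.11. At sls-2.2 replicate 2 held a second summit at +329 (signal 35.6, rank 462) and the joint list one at +356 (signal 29.9, rank 10825). These lay between sls-2.2 and sls-2.3, and the joint one was near the lowest signal of its list, 28.7. Replicate 1 had no second region within 500 bp at any of the 3 genes.

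**Figure D4:**
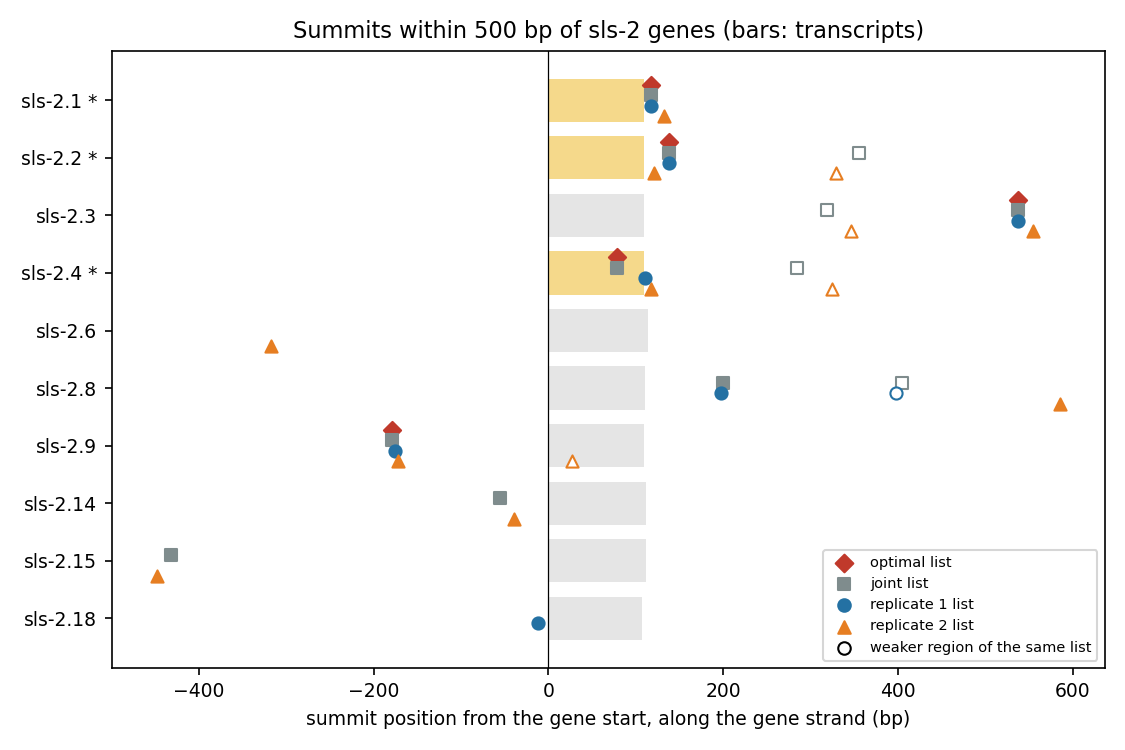
Summits within 500 bp of the 10 sls-2 genes that have any, by position from the gene start along its strand (x, bp), for each of the 4 lists (symbols); bars are the transcripts, filled symbols the strongest region of a list and open symbols weaker ones. At the chosen genes (asterisks) the strongest summits lie from +78 to +138, and the summits shown for sls-2.3 are those of the neighbouring sls-2.2.

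Part of each gene is repeated in its close copies, and reads from there may match several places. Among words of 36 bases that start within 250 bp of the gene start, 87.6% at sls-2.1, 89.6% at sls-2.2, 87.6% at sls-2.3 and 96.4% at sls-2.4 occurred once in the genome. Words starting from −18 to +43 at sls-2.1, from −17 to +34 at sls-2.2 and from −2 to +15 at sls-2.4 occurred more than once, at up to 4 places. All words starting after the transcript occurred once, and every replicate summit lay there. Within the transcript, 60.0% of words at sls-2.1, 68.2% at sls-2.2 and 85.5% at sls-2.4 occurred once. Over the other 14 genes this share ranged from 30.0% to 100%, with a median of 88.4%. It was 100% at sls-2.8, sls-2.14, sls-2.15 and sls-2.16, which had no optimal region within 500 bp, and at sls-2.9. Before the start of sls-2.9, however, 79.2% of words occurred once. Words starting there from −215 to −164 were repeated, at up to 28 places, and the optimal summit near sls-2.9 was among them, at −179. How the authors treated reads that match several places is not given in the sources used here, and the part of such reads in the position of the summits was not tested.

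**Figure D5:**
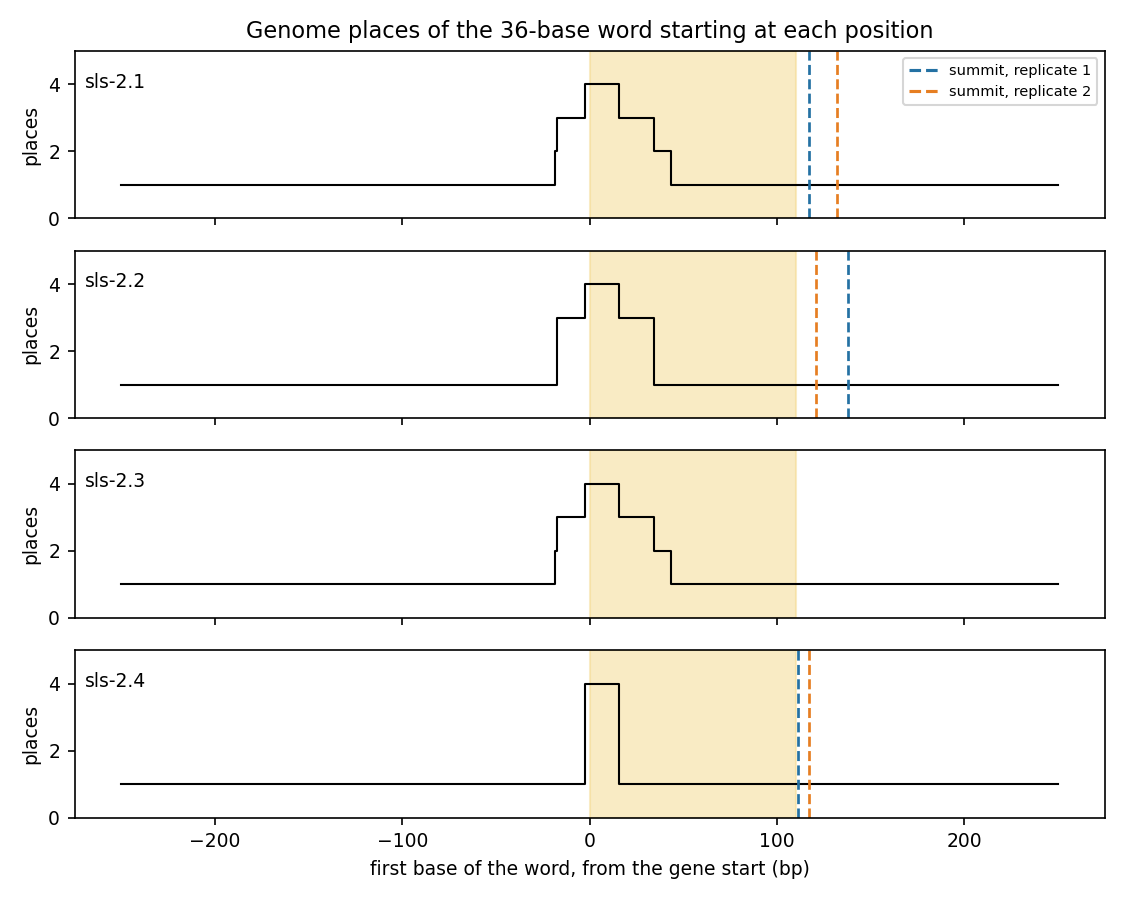
Number of places in the genome (y) of the 36-base word that starts at each position from the gene start (x, bp), for sls-2.1 to sls-2.4; shading marks the transcript and dashed lines the replicate summits at the chosen genes. The repeated words lie from −18 to +43, before the summits, and the summits of sls-2.3 are outside the plotted range.

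The base composition at the chosen summits differed from that of most optimal regions. Within 75 bp on each side of the summit, GC content was 29.1% at sls-2.1, 35.1% at sls-2.2 and 37.7% at sls-2.4. The median was 47.0% over the 354 optimal regions and 35.8% over the other regions of the joint list. Of the optimal regions, 3.67%, 9.60% and 12.4% had a lower GC content than sls-2.1, sls-2.2 and sls-2.4, respectively. The tRNA-associated region beside sls-2.9 was at 47.0%.

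The chosen genes lay between protein-coding genes, and none lay within the bounds of one. This also held for sls-2.3 and for 11 of 18 sls-2 genes in all. sls-2.1 is flanked by nep-25, which encodes a neprilysin-type peptidase and ends 244 bp before it on the same strand, and by ZK1248.17, which lies 279 bp after it on the opposite strand. Farther on, H41C03.3 lies 802 bp after sls-2.1 on the same strand, with its 5′ end 795 bp from the summit. sls-2.2 and sls-2.3 face each other end to end, 456 bp apart, with C17C3.24 on the left of sls-2.2 at 1812 bp and ins-13, an insulin-like peptide gene, 238 bp to the right of sls-2.3. The optimal summit between this pair was 29 bp from the end of sls-2.2 and 428 bp from the end of sls-2.3, and no list held a summit within 500 bp before the start of sls-2.3. The closest summit to sls-2.3 was 210 bp past its end, that of the weak second joint region. Also to the right of the pair lay acdh-2, 504 bp from sls-2.3 and 1070 bp from sls-2.2.

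sls-2.4 lies between egg-5, which acts in the oocyte-to-embryo transition and whose 5′ end is 616 bp before it on the opposite strand, and R12E2.11, whose 3′ end is 122 bp after it. The summit was 695 bp from the 5′ end of egg-5 and 154 bp from R12E2.11. Farther on, mrps-6 lies 1442 bp after sls-2.4 on the opposite strand. At sls-2.2, sls-2.3 and sls-2.4 a noncoding gene on the opposite strand (C17C3.23, C17C3.22 and R12E2.18) overlapped the transcript by 101 bp. sls-2.1 had none, and of the other 14 genes only sls-2.8 had an antisense noncoding gene over it. ChIP regions have no strand, so signal cannot be assigned between a gene and its antisense partner.

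Among the 129 annotated snRNA-class genes, spliced leader genes included, 8 optimal regions were within 500 bp of at least 1. The strongest was at W05B2.8 (signal 201, summit 19 bp past the gene at +120), followed by sls-2.4, sls-2.1 and sls-2.2. C28A5.7 had a region of signal 114 with the summit at +43 and F54D8.7 one of signal 96.3 at +23. A second region at W05B2.8 had signal 100.5. The summits of both regions at W05B2.8 were within the protein-coding gene dhc-4. In the optimal list the summits at C28A5.7, F54D8.7 and sls-2.4 thus lay inside the gene, while those at W05B2.8, sls-2.1 and sls-2.2 lay past its end.

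Regions with the most similar signal in both replicates belonged to several gene classes. Likeness was the summed absolute difference in log2 signal over the 2 replicates. For sls-2.4 the closest optimal regions were nearest to the noncoding gene K02A4.4 (summed difference 0.06) and to the tRNA gene ZK678.t1 (0.07). For sls-2.1 they were at the tRNA gene Y59E1B.t2 (0.06) and near sas-5, a centriole duplication gene (0.07). For sls-2.2 they were at the tRNA gene C04A2.t1 (0.07) and near sup-35 (0.09).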

How the data were processed

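Regions from ChIP-seq of NPAX-4 in 2 biological replicates were used as deposited. The signal value of each region and the summit offset were made by the authors' peak caller. Each relaxed list was made from the ce11 alignments of a replicate, or of both, and a control, and the optimal list was thresholded on the irreproducible discovery rate from those lists, per the deposited description files. For the caller, its signal scale, the aligner and the threshold, the name or value is not given in the sources used here. The ce10 lists were not used.

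Genes came from Ensembl release 115 (WBcel235), with RefSeq symbols where a name was missing or shared. All 18 sls-2 snRNA genes had the same coordinates in both annotations. A summit was the region start plus its offset, and a gene had a region where a summit was within 500 bp of either end. Pairwise identity came from global alignment in Biopython 1.88 (match 1, mismatch −1, gap opening −2, extension −0.5). Words were counted exactly on both strands of the RefSeq genome. Python 3.11.15, numpy 2.4.6, pandas 2.3.3 and matplotlib 3.10.9 were used. Distance and word counts were tested on simulated sequence.

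The members, lists and descriptions were chosen with earlier results of these data known, and the comparison of leaders and of the 15-base stretch was made with the regions known. All 18 sls-2 genes, neighbours within 2000 bp, the flanking coding genes, the 2 regions most similar in signal to each member and snRNA-class genes with an optimal region were named by rule. With a single condition and genes chosen from these lists, no test was made.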

Additional observations from a re-analysis of the deposited data

How the results depend on the processing

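Of the 18 sls-2 genes, 5 were near an optimal summit within 500 or 1000 bp, 4 within 200 bp and 3 within 100 bp, where only sls-2.1, sls-2.2 and sls-2.4 were left. Counting regions that overlap the gene gave 4, without sls-2.3, and the higher-signal part of the optimal list gave 4, without sls-2.9. The count from 1 replicate's 354 highest regions was 5 to 6, with sls-2.8 gained without replicate 2. The joint count of 8 became 5 within 100 bp, 6 within 200 bp, 9 within 1000 bp and 7 to 9 from 1 replicate's list. sls-2.1, sls-2.2 and sls-2.4 were counted in each of these settings. The settings re-use the list from which these genes were chosen, or the lists from which it was derived, so this is a description. sls-2.2, with rank 176 of 354, only just stayed in the higher-signal part. From 1 replicate alone the summit was at +117 to +132 for sls-2.1, +121 to +138 for sls-2.2 and +111 to +117 for sls-2.4, against +78 for sls-2.4 in the optimal list. The signal of each member was the same when the summit nearest to the gene start was taken. Words occurring once rose with word length, to 90.4% (sls-2.1), 92.4% (sls-2.2) and 99.2% (sls-2.4) at 50 bases and to 100% for all 3 at 100 bases, as longer words reach past the shared bases. Read depth is unknown, so the lack of a region at the other genes is a lack of a listed region only.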

Other observations

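The 12 annotated sls-1 genes, which encode the SL1 leader, lie on chromosome V between 17118154 and 17132107, and none had a summit within 500 bp in any of the 4 lists. Of 36-base words that start within 250 bp of their starts, the median share occurring once in the genome was 0%, with a highest value of 23.0%, against 87.6% to 96.4% at sls-2.1 to sls-2.4. The sls-2 pseudogene sls-2.19, on chromosome IV from 5264907 to 5265021, had its nearest summit at 4406 bp in the joint list.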
